A study of Arabidopsis thaliana with 12 samples.

Results

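Flavonoid and anthocyanin genes of Arabidopsis thaliana were followed through 2 RNA sequencing experiments on whole seedlings, 10 days old. The set is 10 genes chosen by gene identifier, all 10 of which are present in both deposited count tables, out of 21981 entries in the flg22 experiment and 27612 in the experiment on transgenic lines. In the first experiment, wild type (WT_mock, WT_flg22) and the cerk1 mutant (cerk1_mock, cerk1_flg22) received sterile water or 100 nM flg22, at 1 library for each combination. The title of the cerk1_flg22 library names cerk1 while its genotype label reads cerk2-/-; the title was followed here. In the second, untreated seedlings of the cerk1 mutant carried a FLAG-tagged CERK1 transgene driven by the CERK1 promoter, of wild-type sequence (CERK1_WT) or in the forms named 3A, 3D and 3E (CERK1_3A, CERK1_3D, CERK1_3E), at 2 libraries per line. All 4 lines thus carry the cerk1 mutation. The labels give neither the time in flg22, nor the residues changed, nor the number of transformants per line, so construct and line cannot be told apart. Whether both libraries of a line were grown apart is not stated, and p-values here measure only the spread between libraries, which may be technical.

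Flavonoids are made from p-coumaroyl-CoA by a short chain of enzymes. Flavonols and the pigmented anthocyanins share the first steps and part at the dihydroflavonols. In seedlings the enzymes leading to flavonols are switched on by MYB12 and its relatives MYB11 and MYB111, whereas the later anthocyanin enzymes respond to complexes of a MYB protein such as MYB75, a bHLH protein and TTG1. The pathway responds to light, sugar and nutrients, and flg22 is known to lower its induction by UV-B in cultured Arabidopsis cells. CERK1 is the LysM receptor kinase of chitin perception, while flg22, a peptide of bacterial flagellin, is bound by the receptor kinase FLS2. The comparisons ask what flg22 does to these genes with and without CERK1, and whether the mutated forms of CERK1 move them in untreated seedlings.

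The early enzymes are CHS, chalcone synthase, at chr5:4488476-4490264 (plus strand, AT5G13930, listed as TT4); CHI, chalcone isomerase, at chr3:20430059-20431597 (minus strand, AT3G55120, listed as TT5); and F3H, flavanone 3-hydroxylase, at chr3:19025192-19026872 (plus strand, AT3G51240). F3'H, the cytochrome P450 that adds the second B-ring hydroxyl group, lies at chr5:2560328-2563137 (plus strand, AT5G07990, listed as TT7), and FLS1, flavonol synthase, at chr5:2803833-2805606 (plus strand, AT5G08640). The late enzymes are DFR, dihydroflavonol reductase, at chr5:17164093-17166032 (minus strand, AT5G42800), LDOX, leucoanthocyanidin dioxygenase, at chr4:12004726-12006209 (minus strand, AT4G22880), and UF3GT, a glycosyltransferase acting on anthocyanins, at chr5:21936746-21938396 (minus strand, AT5G54060). The regulators are MYB12 at chr2:19476326-19479597 (plus strand, AT2G47460) and MYB75, also called PAP1, at chr1:21233555-21235292 (minus strand, AT1G56650). Positions are those of the RefSeq annotation of TAIR10.1. An annotated long non-coding RNA, AT3G51238, covers most of F3H on the opposite strand. The strand setting of the counting is not given in the sources used here, so reads of the pair cannot be told apart. MYB75 has close relatives in MYB90, MYB113 and MYB114, between which reads may have been split.

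Library totals ranged from 18159354 to 22663236 counts in the flg22 experiment, and those of the lines from 36013439 to 41288819. Levels are given as CPM, the count relative to a library total scaled by TMM (a trimmed-mean factor), within each table. CERK1, the gene disrupted in cerk1, stood at 24.9 CPM in WT_mock and 9.70 in cerk1_mock, and at 273 in WT_flg22 and 119 in cerk1_flg22. FRK1, a receptor-like kinase gene used as a marker of flg22 perception, had 3 and 12 counts in WT_mock and cerk1_mock and 1740 and 2782 counts in the flg22 libraries of these genotypes. In the lines CERK1 reads, transgene included, lay between 52.5 CPM (CERK1_WT replicate 2) and 129 CPM (CERK1_3E replicate 2). Replicates differed by at least 2-fold, on CPM + 1, for 374 of 21274 genes in CERK1_3D, against 194 to 217 in the other lines. The chosen markers of root cells were all detected in all 12 libraries, 23 of 23, as were 14 of 14 markers of green shoot tissue.

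**Figure D1:**
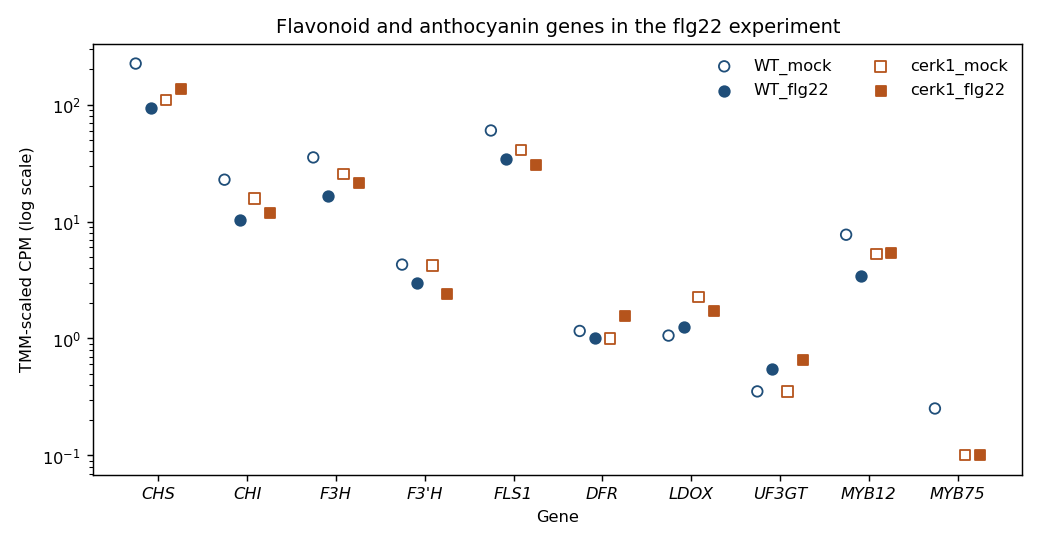
Level of each gene in the 4 libraries of the flg22 experiment, as TMM-scaled CPM on a log axis, 1 point per library; the WT_flg22 library has 0 counts of MYB75 and no point there. CHS is the most abundant, at 93.4 to 224 CPM, and for CHS, CHI, F3H, FLS1 and MYB12 the WT_mock library is above the other libraries.

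Seedlings in the flg22 experiment expressed the flavonol enzymes and very little of DFR, LDOX, UF3GT and MYB75. Other genes of the anthocyanin branch were not all low, with BGLU10 at 14.9 to 23.5 CPM and GSTF12 at 0.756 to 1.76 CPM. Per kilobase of stated gene length, CHS averaged 94.4 CPM over the 4 libraries, FLS1 31.0, F3H 16.3 and CHI 16.3. MYB12 averaged 3.76 CPM per kilobase and F3'H 1.89. The late enzymes were lower still, at 1.25 for LDOX, 0.870 for DFR and 0.320 for UF3GT, and MYB75 was at 0.124 CPM per kilobase. For MYB75 the counts were 5 and 0 in wild type, mock and flg22, and 2 and 2 in cerk1. Comparisons in this experiment took genes that reached 1 CPM in some library, which 8 of the 10 did. UF3GT, with 7 to 13 counts per library, and MYB75 did not, and no change in either could be detected at this depth.

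In wild type, the early enzymes, FLS1 and MYB12 were lower with flg22, and DFR and LDOX were within counting error of their mock level. CHS stood at 224 CPM in WT_mock and 93.4 in WT_flg22, 2.40-fold lower (95% exact binomial counting interval 2.27 to 2.54). CHI was at 22.8 and 10.2 CPM, 2.23-fold lower (1.89 to 2.64). F3H was at 35.3 and 16.4 CPM, 2.16-fold lower (1.89 to 2.47). Chalcone synthase, chalcone isomerase and flavanone 3-hydroxylase act in that order on the common trunk of the pathway. FLS1, which draws dihydroflavonols into flavonols, was at 60.04 and 33.95 CPM, 1.77-fold lower (1.61 to 1.95). F3'H was at 4.29 and 2.96 CPM, 1.45-fold lower (1.03 to 2.06). MYB12, the activator of this group, was at 7.71 and 3.46 CPM, 2.23-fold lower (1.67 to 3.01). DFR, at 1.16 and 1.00 CPM, had a ratio of 0.864 (0.45 to 1.645), and LDOX, at 1.06 and 1.25 CPM, 1.18 (0.64 to 2.22). Both intervals include equality. That of DFR also includes a 2-fold fall, so DFR cannot be called unchanged. These intervals hold counting error alone, PCR reads not being independent molecules. With 1 library per group no difference here has a replicate error or a p-value.

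By the rule of a 2-fold or larger ratio on CPM + 1, CHS, CHI and F3H were lower in wild type with flg22, 3 of 8 genes, where 5.79% of all 18872 genes were 2-fold lower. None of the 8 was 2-fold higher, against 13.2% of all genes. MYB12 was just outside that fold, at a log2 ratio of -0.97 on CPM + 1, beside -1.06 for F3H just inside it. The median log2 ratio was -0.89 for the 8 genes and -0.03 for all genes. The counting interval lay below equality for 6 of 8 genes, against 36.3% of all genes, and above it for 0, against 34.5%. Scaling by library totals in place of TMM moves the median of all genes in this comparison from -0.03 to -0.28, and with it 5 of the 8 genes are 2-fold lower; in cerk1 that median moves from -0.01 to -0.17.

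**Figure D2:**
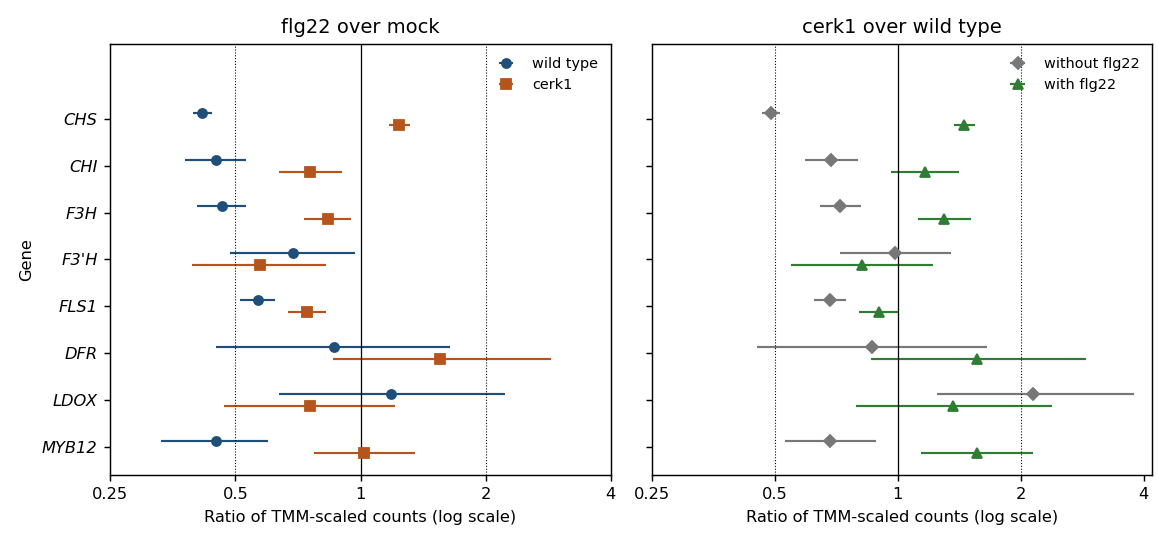
Ratio of TMM-scaled counts for the 8 genes above 1 CPM, flg22 over mock in each genotype (left) and cerk1 over wild type in each treatment (right), on a log axis; bars are 95% counting intervals and dotted lines mark a 2-fold difference. In wild type CHS, CHI, F3H and MYB12 sit between 0.417 and 0.463, while in cerk1 CHS lies at 1.24.

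Because these early genes and MYB12 were lower together, the 250 bases before their annotated starts are shown for the 3 enzymes past the 2-fold mark and for MYB12, with DFR as a late gene within counting error of its mock level. They are read from TAIR10.1 on the coding strand, 5′ to 3′. Capitals mark CACGTG (the G-box, bound by bZIP and bHLH proteins) and a group of motifs of the kind that plant MYB proteins bind, on either strand: the motif ACCTAAC, the related motif ACCTACC, a further motif written as ACCAAAC, and its relative written as ACCAACC.
CHS chr5:4488226-4488475: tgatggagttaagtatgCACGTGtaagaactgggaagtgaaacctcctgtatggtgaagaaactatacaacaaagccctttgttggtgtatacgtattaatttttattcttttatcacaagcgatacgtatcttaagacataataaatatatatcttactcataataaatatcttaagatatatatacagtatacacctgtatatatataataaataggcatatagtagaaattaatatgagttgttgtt
CHI chr3:20431598-20431847: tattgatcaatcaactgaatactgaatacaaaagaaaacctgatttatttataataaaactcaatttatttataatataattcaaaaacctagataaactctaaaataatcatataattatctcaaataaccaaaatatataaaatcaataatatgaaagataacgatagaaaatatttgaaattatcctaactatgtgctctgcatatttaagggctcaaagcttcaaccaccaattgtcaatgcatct
F3H chr3:19024942-19025191: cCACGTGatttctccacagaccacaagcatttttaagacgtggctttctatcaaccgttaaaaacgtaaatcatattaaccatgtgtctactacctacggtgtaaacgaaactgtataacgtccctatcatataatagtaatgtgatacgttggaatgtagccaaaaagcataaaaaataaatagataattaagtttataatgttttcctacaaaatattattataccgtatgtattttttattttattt
MYB12 chr2:19476076-19476325: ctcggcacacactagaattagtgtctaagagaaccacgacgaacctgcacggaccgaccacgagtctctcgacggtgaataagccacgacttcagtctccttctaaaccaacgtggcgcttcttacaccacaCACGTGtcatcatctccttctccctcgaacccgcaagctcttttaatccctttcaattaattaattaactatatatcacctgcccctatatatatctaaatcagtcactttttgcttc
DFR chr5:17166033-17166282: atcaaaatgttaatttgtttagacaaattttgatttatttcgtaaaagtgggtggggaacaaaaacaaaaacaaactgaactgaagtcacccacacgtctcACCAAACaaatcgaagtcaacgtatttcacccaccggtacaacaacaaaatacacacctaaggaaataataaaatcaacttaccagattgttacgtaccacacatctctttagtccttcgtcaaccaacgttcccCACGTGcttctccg
CACGTG occurs in the windows of CHS, F3H, MYB12, DFR and UF3GT, 5 of 10, against 6.49% of the 27443 windows of this length before protein-coding genes. Its last base lies 228 bases before the start in CHS, 244 in F3H, 113 in MYB12 and 9 in DFR. An ACC motif was found in 3 of 10 windows, those of FLS1, DFR and MYB75, against 13.7% of all windows, and each was ACCAAAC, held by 8.29% of all. CANNTG, a looser form that includes CACGTG, was in 7 of 10 windows and in 55.3% of all. The CHI window held neither CACGTG nor an ACC motif. CACGTG was thus in the windows of CHS, F3H and MYB12 and missing from those of CHI, FLS1 and F3'H, all lower with flg22 in wild type. It was also in the windows of DFR and UF3GT, with 23 and 7 counts in WT_mock and 20 and 11 in WT_flg22. Those counts are too low to call either gene unchanged, and a link between the motif and the response was not tested. A match describes the sequence and is not evidence of binding, and no match says only that these letters are missing from the window. The F3H window also overlaps AT3G51238.

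In the cerk1 mutant CHS was higher with flg22, MYB12 was within counting error of its mock level, and CHI, F3H, FLS1 and F3'H were lower, each by less than 2-fold. CHS stood at 110 CPM in cerk1_mock and 136 in cerk1_flg22, a ratio of 1.24 (1.17 to 1.31). MYB12 was at 5.28 and 5.39 CPM, a ratio of 1.02 (0.772 to 1.349). CHI was at 15.7 and 11.9 CPM, 1.32-fold lower (1.11 to 1.57). F3H was at 25.5 and 21.3 CPM, lower by a ratio of 0.834 (0.731 to 0.951). FLS1 was at 40.96 and 30.45 CPM, lower by a ratio of 0.744 (0.668 to 0.827). F3'H was at 4.22 and 2.42 CPM, 1.75-fold lower (1.21 to 2.55), beside 1.45-fold in wild type. DFR went from 1.01 to 1.56 CPM and LDOX from 2.26 to 1.71, both within counting error. None of the 8 genes was 2-fold lower (5.38% of all genes) or 2-fold higher (15.2% of all), and the median log2 ratio was -0.26 beside -0.01 for all genes. The interval lay below equality for 4 of 8 genes (37.1% of all) and above it for CHS (36.6% of all).

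The difference between the responses, cerk1 minus wild type on log2(CPM + 1), was 1.56 for CHS (SE from counting alone 0.06), 0.99 for MYB12 (0.29), 0.81 for F3H (0.14), 0.71 for CHI (0.17) and 0.39 for FLS1 (0.10). It was -0.19 for F3'H (0.36), 0.46 for DFR (0.60) and -0.40 for LDOX (0.54). The SE was computed from counts without the added value, which shrinks differences at low levels. For MYB12, F3'H, DFR and LDOX a difference and its SE are therefore not on the same scale. CHS was the 1 gene of 8 past 2-fold, as were 4.04% of all genes in that direction and 0.689% in the other. The median difference was 0.59 for the 8 genes and -0.01 for all genes. It could not be tested, with 1 library in each of the 4 groups.

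The mock libraries of the genotypes already differed. Without flg22, CHS was 2.05-fold lower in cerk1 than in wild type (1.94 to 2.15), CHI 1.45-fold (1.26 to 1.68), F3H 1.38-fold (1.23 to 1.56), FLS1 1.47-fold (1.34 to 1.60) and MYB12 1.46-fold (1.13 to 1.89). LDOX was instead 2.14-fold higher (1.25 to 3.78), on 21 counts in WT_mock and 45 in cerk1_mock. F3'H, at 4.29 and 4.22 CPM, and DFR, at 1.16 and 1.01 CPM, had intervals that include equality. On CPM + 1 only CHS of the 8 was 2-fold lower, where 4.01% of all genes were, and none was 2-fold higher, where 0.302% were. The interval was below equality for 5 of 8 genes (28.9% of all) and above it for 1 (27.8% of all), and the median log2 ratio was -0.46 beside 0.00 for all genes. This comparison shares the WT_mock library with the flg22 comparison in wild type and the cerk1_mock library with that in cerk1.

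With flg22, CHS, F3H and MYB12 were higher in cerk1 than in wild type. CHS was 1.46-fold higher (1.37 to 1.54), F3H 1.30-fold (1.12 to 1.51) and MYB12 1.56-fold (1.14 to 2.14). CHI (1.16-fold, 0.960 to 1.41), FLS1 (0.897-fold, 0.802 to 1.002), F3'H (0.818-fold, 0.547 to 1.22), DFR (1.56-fold, 0.860 to 2.88) and LDOX (1.37-fold, 0.792 to 2.39) had intervals that include equality. None of the 8 genes was 2-fold apart, against 0.641% of all genes higher and 0.97% lower in cerk1. The interval was above equality for 3 of 8 genes (21.1% of all) and below it for 0 (26.1% of all). The median log2 ratio was 0.31 for the 8 genes and -0.01 for all.

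Root markers were also lower in cerk1_mock than in WT_mock. Summed over the 23 root markers, wild type had 333 CPM in mock and 230 with flg22, and cerk1 had 109 and 174. In cerk1_mock all 23 were below WT_mock, 15 of them at least 2-fold, as were 4.01% of all genes. With flg22, 20 of 23 were lower in wild type and 18 of 23 higher in cerk1. The 10 flavonoid genes summed to 357, 163, 205 and 211 CPM in the same order of libraries. The 14 shoot markers summed to 57780, 55490, 59610 and 48410 CPM. In whole seedlings, fewer cells of a type and less RNA per cell cannot be told apart, and the part of root or shoot content in the flavonoid values was not tested.

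**Figure D3:**
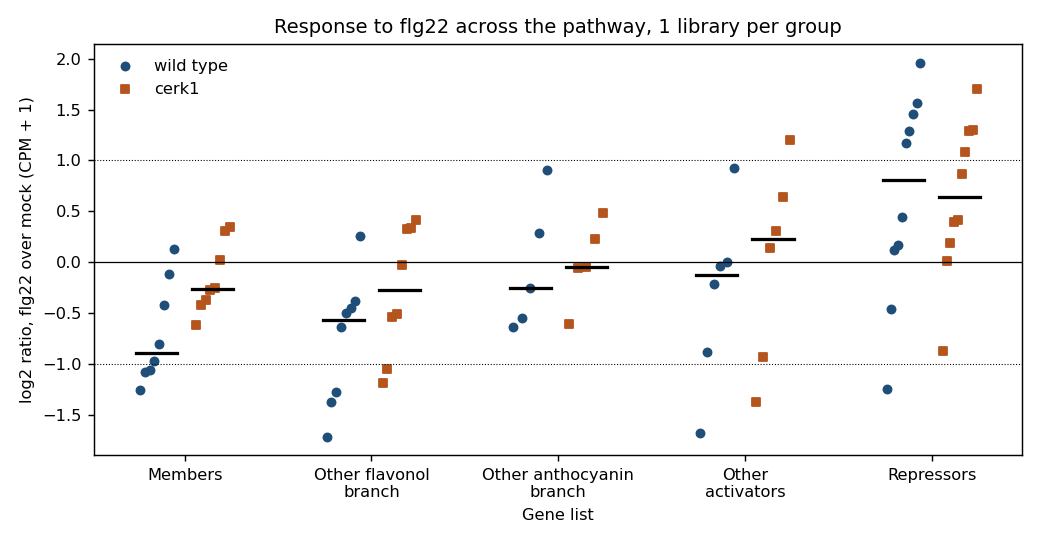
log2 ratio of flg22 over mock on CPM + 1 for each measured gene of 5 lists, in wild type (circles) and cerk1 (squares); bars are medians and dotted lines mark a 2-fold ratio. Points of the flavonol branch lie mostly below 0, and those of the repressors mostly above it, with medians of 0.81 in wild type and 0.64 in cerk1.

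Most other genes of the flavonol branch were lower with flg22 in wild type. Of 8 such genes, 7 had a log2 ratio below 0 and 3 were at least 2-fold lower, beside 5.79% of all genes, with a median of -0.57. The gene above 0 was OMT1, an O-methyltransferase, at 1.196 times its mock level (1.15 to 1.25), named after its value was seen. In cerk1, 5 of 8 were below 0 and 2 were at least 2-fold lower, beside 5.38% of all genes, with a median of -0.27. UGT78D1, a flavonol rhamnosyltransferase, was lower with flg22 in both genotypes, from 58.2 to 17.1 CPM in wild type and from 34.2 to 14.6 CPM in cerk1 (ratios of 0.294, 0.259 to 0.332, and 0.427, 0.371 to 0.490). 4CL3, the coumarate:CoA ligase that supplies this branch, went from 21.6 to 7.71 CPM in wild type and from 13.97 to 6.24 CPM in cerk1 (0.357 and 0.447). AT1G06000 was 0.405 times its mock level in wild type (0.362 to 0.453) and 0.696 times in cerk1 (0.620 to 0.781). RHM1, which makes UDP-rhamnose for flavonol glycosides and cell walls, was 0.703 times its mock level in wild type and 1.26 times in cerk1, and without flg22 it was 0.455 times the wild-type level in cerk1 (0.429 to 0.482).

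The other anthocyanin genes had no member 2-fold apart on CPM + 1 in either genotype. Of all genes, 5.79% were lower and 13.2% higher in wild type, and 5.38% lower and 15.2% higher in cerk1. With only 5 genes compared, a count of 0 is close to these shares and does not show an unresponsive branch. Of 7 listed genes 6 were in the table and 5 reached 1 CPM, with log2 ratios from -0.63 to 0.91 in wild type and from -0.60 to 0.48 in cerk1. AT1G03495 was at 4.84 CPM in WT_mock and 9.97 in WT_flg22, a ratio of 2.06 (1.61 to 2.66) without the added value, and 1.45 (1.17 to 1.78) in cerk1. BGLU10 was lower in wild type, at 0.632 times (0.544 to 0.732), and within counting error in cerk1, at 0.955 times (0.821 to 1.11). GSTF12, the glutathione transferase needed to bring anthocyanins to the vacuole, stood at 0.756 CPM in WT_mock and 1.15 in WT_flg22, within counting error. Of the 5 proanthocyanidin genes, which act in the seed coat, AHA10 alone reached 1 CPM, at 1.76 CPM in WT_mock and 2.70 in WT_flg22. These 4 genes did not meet the 2-fold rule for naming and were chosen after their values were seen.

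Among the other regulators, MYB111 and EGL3 were lower and TTG1 and most of the repressors listed were higher with flg22. MYB111, the relative of MYB12 that also activates flavonol genes, was at 6.15 CPM in WT_mock and 1.25 in WT_flg22, 0.204 times (0.127 to 0.315). In cerk1 it was at 4.07 and 0.956 CPM, 0.235 times (0.135 to 0.391). TTG1, the WD40 protein of the anthocyanin complex, was higher with flg22, 1.94 times in wild type (1.74 to 2.16) and 2.36 times in cerk1 (2.1 to 2.65). Of the other 10 activators listed, 6 reached 1 CPM, of which 1 was 2-fold lower in wild type, and 1 lower and 1 higher in cerk1. Their medians were -0.12 and 0.22. The shares of all genes past that fold were 5.79% downward and 13.2% upward for wild type, and 5.38% and 15.2% for cerk1. With 6 genes, counts this small do not set the activators apart from these shares. Of 10 repressors, all above 1 CPM in a library, 5 were at least 2-fold higher and 1 lower in wild type, where 13.2% of all genes were higher and 5.79% lower. In cerk1, 4 were higher and 0 lower, where 15.2% of all genes were higher and 5.38% lower. MYBL2, a repressor of anthocyanin genes, was at 13.2 CPM in WT_mock and 54.2 in WT_flg22, 4.12 times (3.60 to 4.74), and at 15.8 and 40.5 CPM in cerk1, 2.56 times (2.24 to 2.93). LBD38, which represses anthocyanin genes under ample nitrogen, was 2.98 times its mock level in wild type (2.77 to 3.21) and 2.47 times in cerk1 (2.28 to 2.67), and its relative LBD37 2.47 and 2.13 times. MYB7 was 3.05 times its mock level in wild type (2.46 to 3.81) and 3.80 times in cerk1 (2.96 to 4.91). MYB4, a repressor of phenylpropanoid genes, was 2.31 times its mock level in wild type (2.08 to 2.56) and 1.86 times in cerk1 (1.67 to 2.07). SPL9, which acts against the anthocyanin MYB complex, was lower, at 0.326 times in wild type (0.221 to 0.471) and 0.484 times in cerk1 (0.359 to 0.646). Between the genotypes no repressor was 2-fold apart without flg22 or with it. Few genes of any kind were, with 0.302% higher and 4.01% lower in cerk1 without flg22, and 0.641% and 0.97% with it.

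**Figure D4:**
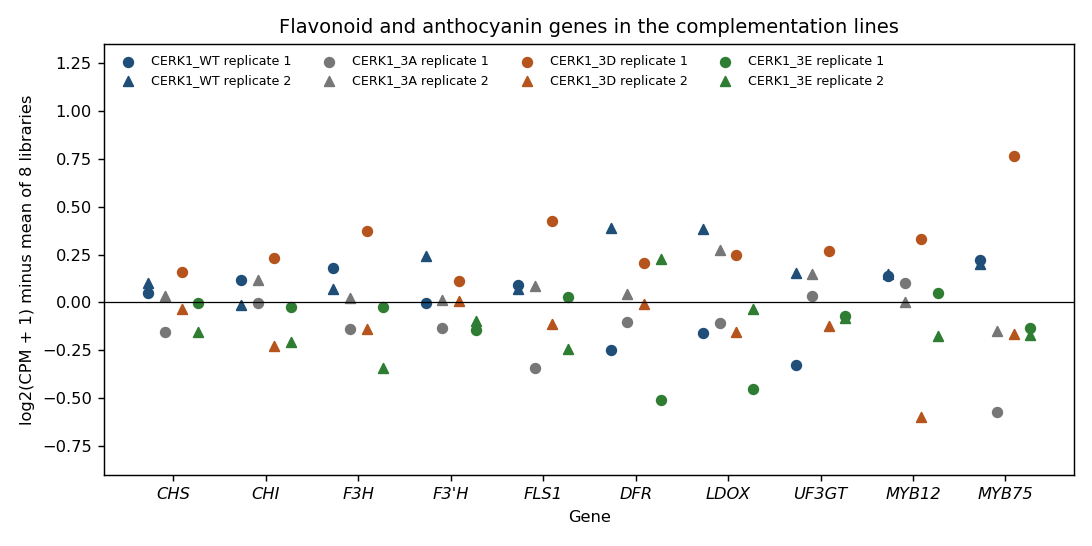
log2(CPM + 1) of each gene in the 8 libraries of the complementation lines, relative to its mean over the 8; circles are replicate 1, triangles replicate 2. CERK1_3D replicate 1 is the highest library for 7 of the 10 genes, and MYB12 and MYB75 are spread most widely.

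In untreated complementation lines all 10 genes were tested, and none differed between any lines by edgeR's quasi-likelihood test with Benjamini-Hochberg adjustment over 21274 genes. All 6 comparisons were made. The adjusted p was at least 0.854 for every gene in every comparison, and DESeq2 likewise called 0 of the 10. At an unadjusted p under 0.05, edgeR and DESeq2 each had 1 gene in 1 comparison, MYB75 in CERK1_3D against CERK1_3A, where 1230 of all 21274 genes had such a p by edgeR and 1025 by DESeq2. Few genes of any kind passed. Against CERK1_WT, 0% rose and 0.0047% fell in CERK1_3A, 0.0188% rose and 0.0094% fell in CERK1_3D, and 0.0047% rose and 0% fell in CERK1_3E. Among the mutated forms, 0.0188% were higher and 0.0047% lower in CERK1_3D than in CERK1_3A, 0.0094% higher and 0% lower in CERK1_3E than in CERK1_3A, and 0.0094% higher and 0.0047% lower in CERK1_3E than in CERK1_3D. DESeq2 called 15 to 76 genes per comparison. A p that misses the threshold does not show that the lines are alike.

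CHS, the entry to the pathway, was measured at 594 and 614 CPM in the CERK1_WT libraries, 514 and 585 in CERK1_3A, 641 and 560 in CERK1_3D and 571 and 515 in CERK1_3E. Both CERK1_3A and both CERK1_3E libraries were below both of CERK1_WT, by small amounts: log2 -0.13 (SE 0.11, adjusted p = 1.00 by edgeR) and -0.15 (SE 0.11, adjusted p = 1.00). F3H was measured at 167 and 155 CPM in CERK1_WT, 134 and 149 in CERK1_3A, 191 and 134 in CERK1_3D and 145 and 116 in CERK1_3E. CERK1_3D held the highest F3H library, and both CERK1_3E libraries were below both of CERK1_WT (log2 fold change -0.30, SE 0.18, edgeR adjusted p = 1.00). CHI was measured at 39.5 and 36.0 CPM in CERK1_WT, 36.3 and 39.5 in CERK1_3A, 42.9 and 30.9 in CERK1_3D and 35.7 and 31.4 in CERK1_3E. The highest and the lowest CHI library were thus of the same line, CERK1_3D.

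FLS1 was measured at 95.5 and 94.2 CPM in CERK1_WT, 70.6 and 95.2 in CERK1_3A, 121 and 82.9 in CERK1_3D and 91.5 and 75.8 in CERK1_3E. F3'H was measured at 13.5 and 16.2 CPM in CERK1_WT, 12.3 and 13.6 in CERK1_3A, 14.7 and 13.6 in CERK1_3D and 12.2 and 12.55 in CERK1_3E. F3'H had the smallest unadjusted p of the 10 genes in CERK1_3E against CERK1_WT, 0.0758 by edgeR (log2 -0.26, SE 0.13, adjusted p = 1.00), and was lower in 2 of 2 libraries.

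For the late enzymes DFR and LDOX the libraries of all 4 lines overlapped. DFR was measured at 20.7 and 32.7 CPM in CERK1_WT, 22.9 and 25.5 in CERK1_3A, 28.6 and 24.5 in CERK1_3D and 17.1 and 29.0 in CERK1_3E. LDOX was measured at 16.98 and 25.2 CPM in CERK1_WT, 17.7 and 23.3 in CERK1_3A, 22.9 and 17.1 in CERK1_3D and 13.7 and 18.6 in CERK1_3E. In CERK1_WT, CERK1_3A and CERK1_3E the second library was higher for both of these genes, which act in sequence. UF3GT was measured at 3.57 and 5.38 CPM in CERK1_WT, 4.86 and 5.36 in CERK1_3A, 5.90 and 4.26 in CERK1_3D and 4.46 and 4.42 in CERK1_3E. In this table the stated lengths of LDOX, F3'H, FLS1 and F3H are 3725, 3703, 2657 and 2864 bases, beyond the annotated spans of 1484, 2810, 1774 and 1681 bases, so these 4 entries may hold reads from outside the gene. In the flg22 experiment the stated lengths of the 10 genes were 914 to 1835 bases, none beyond the span.

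MYB75, the anthocyanin activator, was measured at 4.40 and 4.33 CPM in CERK1_WT, 2.11 and 3.18 in CERK1_3A, 6.86 and 3.14 in CERK1_3D and 3.21 and 3.11 in CERK1_3E. CERK1_3A and CERK1_3E lay below CERK1_WT in 2 of 2 libraries each, with log2 fold changes of -0.72 (SE 0.37, unadjusted p = 0.0867, edgeR adjusted p = 1.00) and -0.46 (SE 0.37, adjusted p = 1.00). CERK1_3D was above CERK1_3A by 0.92 (SE 0.37, unadjusted p = 0.0377, adjusted p = 0.854 by edgeR), but the libraries of the 2 lines overlap, since CERK1_3D replicate 2 lies below CERK1_3A replicate 2. MYB12 was measured at 4.99 and 5.03 CPM in CERK1_WT, 4.83 and 4.45 in CERK1_3A, 5.85 and 2.59 in CERK1_3D and 4.62 and 3.82 in CERK1_3E. Its 2.26-fold gap between the CERK1_3D libraries was the widest of any of the 10 genes within a line.

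CERK1_3E had all 10 genes below CERK1_WT on average. Each had a negative log2 fold change, with a median of -0.23 beside 0.00 for all genes, and for 7 of 10 both CERK1_3E libraries lay below both CERK1_WT libraries, as for 16.9% of all genes. For 0 of 10 they lay above, as for 16% of all genes. In CERK1_3A 4 of 10 lay below CERK1_WT without overlap, as for 16% of all genes, and 0 above (16.2%), with a median of -0.14. CERK1_3D overlapped CERK1_WT for all 10 genes, where 12.5% of all genes were above and 12.8% below without overlap, and its median was 0.00. The genes share a pathway and its regulators, so such counts are not independent observations, and no call stands behind them. The root markers had a median of -0.21 in CERK1_3E against CERK1_WT and -0.29 in CERK1_3A, with 18 and 17 of 23 below 0, and their part in these counts was not tested.

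Within CERK1_3D, all 10 genes were higher in replicate 1 than in replicate 2, with a median log2 difference of 0.43 and a range of 0.10 to 0.93, while 51.0% of all genes were higher in replicate 1. In CERK1_3A 9 of 10 were higher in replicate 2 (median difference -0.15), while 49.0% of all genes were higher in replicate 1. In CERK1_WT 6 of 10 were higher in replicate 2 and in CERK1_3E 7 of 10 were higher in replicate 1. The shares of all genes higher in replicate 1 were 50.8% in CERK1_WT and 50.2% in CERK1_3E. The median log2 fold change of CERK1_3D against CERK1_WT was -0.23 without CERK1_3D replicate 1 and 0.20 without CERK1_3D replicate 2, so that 1 library decides its sign.

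**Figure D5:**
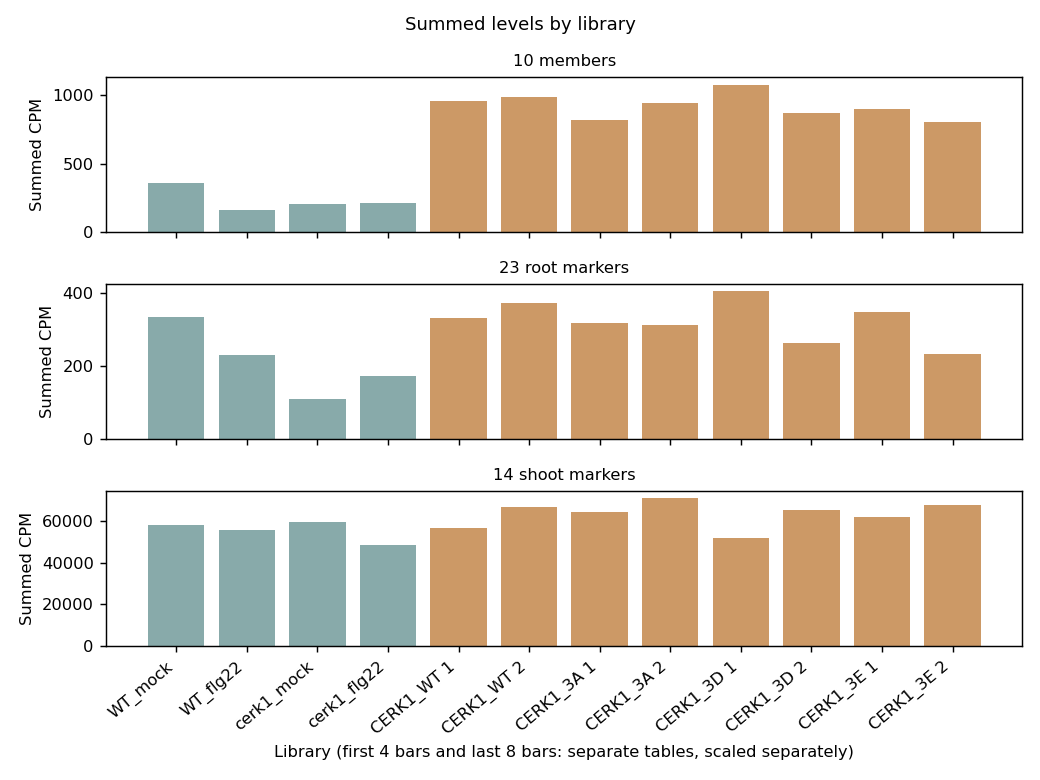
Summed CPM of the 10 flavonoid and anthocyanin genes, 23 root markers and 14 shoot markers in each of the 12 libraries; bars start at 0, and the 4 libraries of the flg22 experiment and the 8 of the lines come from tables scaled separately. In the lines CERK1_3D replicate 1 is highest for the 10 genes (1080 CPM) and for root markers (404 CPM) and lowest for shoot markers (51820 CPM).

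Root and shoot markers also differed between the replicates of CERK1_3D. The root markers summed to 404 CPM in CERK1_3D replicate 1 and 264 in replicate 2, and the shoot markers to 51820 and 65110 CPM. The 10 flavonoid genes summed to 1080 and 873 CPM there. In CERK1_3E, replicate 1 and replicate 2 had 348 and 234 CPM of root markers, 61650 and 67670 of shoot markers and 898 and 809 of the flavonoid genes. In the other lines the flavonoid sum was 959 and 988 CPM in CERK1_WT, with root markers at 333 and 372, and 819 and 945 in CERK1_3A, with root markers at 318 and 312. What part root content has in the replicate differences was not tested.

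Other genes of the pathway were also without a call in the lines. None of the 8 flavonol, 7 anthocyanin and 10 repressor genes tested was called in any of the 6 comparisons by edgeR, nor any of the 8 activators or 2 proanthocyanidin genes that passed the filter. At an unadjusted p under 0.05, UGT78D2, a flavonoid glucosyltransferase, was higher in CERK1_3D than in CERK1_3A (log2 0.23, SE 0.08, adjusted p = 0.820 by edgeR, all libraries higher). 4CL3 and RHM1 were each higher by 0.26 in that comparison (SE 0.10 and 0.11, adjusted p = 0.854 by edgeR for each). MYB90, the closest relative of MYB75, had 62 and 17 counts in CERK1_3D and 6 and 7 in CERK1_3A, a log2 difference of 2.58 (SE 0.86, adjusted p = 0.792 by edgeR). Against CERK1_3D, CERK1_3E was lower for 4CL3 (log2 -0.27, SE 0.10) and UGT78D2 (-0.23, SE 0.08), both at an adjusted p of 0.999 by edgeR. MYB111 was higher in CERK1_3E than in CERK1_3A (log2 0.66, SE 0.26) and MYB4 lower in CERK1_3E than in CERK1_WT (-0.42, SE 0.18), both at an adjusted p of 1.00 by edgeR. The genes named in this paragraph were chosen by their unadjusted p after their values were seen.

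Of 19023 other genes, ANNAT1, which encodes an annexin, had the profile over the 8 line libraries nearest to the mean profile of the 10 genes, at a root mean square distance of 0.052 on centred log2(CPM + 1). IGMT5, an indole glucosinolate methyltransferase, was also among the nearest 5, at 0.064, with AT5G35460, AT3G21770 and AT5G10730 at 0.062, 0.062 and 0.064. The 10 genes themselves lay at 0.088 (CHS) to 0.246 (MYB75) from their own mean profile. These distances rest on 8 libraries and a narrow range of levels, with ANNAT1 between 173 and 249 CPM, and are a description of these libraries.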

How the data were processed

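The authors deposited 2 tables of whole-number counts per gene, with no normalization, beside a stated gene length. Reads were placed on TAIR10, per the submitters' processing notes. The aligner, counter, strand setting and filters are not given in the sources used here. All 12 sample columns were used. The tables rest on different gene models, since 52.1% of 21773 shared annotated genes have the same stated length, so no test crosses them.

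From the deposited counts, TMM-scaled CPM was computed per table in edgeR 4.0.16 (R 4.3.3). In the flg22 experiment ratios were formed on CPM + 1, with 18872 genes at 1 CPM or more in at least 1 library, and single-gene ratios on scaled counts with 95% exact binomial intervals. In the lines, edgeR's quasi-likelihood test used all 8 libraries, group as the only term and filterByExpr (21274 genes, 4 residual degrees of freedom, common biological coefficient of variation 0.170), two-sided at an adjusted p of 0.05. SE is the log2 fold change divided by the root of F. Errors are counting errors in the first experiment. DESeq2 1.42.0 was an alternative, as were other scalings, filters, added values, a replicate block and leaving out each library. The edgeR fit and the interval were tested on simulated data. No pair of replicates agreed within sampling noise (chi-square per degree of freedom 38.9 to 55.8).

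The 10 genes, the pathway and marker lists and the rules for naming genes were chosen with earlier results of these data known. Of the pathway lists, genes at least 2-fold apart in the flg22 experiment were named, largest first and at most 6 per list. Symbols and sequences come from the RefSeq TAIR10.1 annotation and genome, in which all 10 genes matched by locus tag. No protein sequence was used here.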

Additional observations from a re-analysis of the deposited data

Results flagged for a closer look

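CHS responded to flg22 in opposite directions in the 2 genotypes. Its level was 2.40-fold lower with flg22 in wild type (counting interval 2.27 to 2.54) and 1.24 times its mock level in cerk1 (1.17 to 1.31), a difference of 1.56 in log2 response. Each genotype has 1 library per treatment, so the difference was not tested. CHS kept this pair of directions under each scaling, added value and filter tried, with log2 responses of -1.53 and 0.13 when library totals were used. CHS was the 1 gene of the 10 with counting intervals on opposite sides of equality. RHM1 and FLS3 of the flavonol branch, named after their values were seen, had this too. Among all genes, 36.3% had an interval below equality in wild type, and 36.6% had an interval above it in cerk1. The share of all genes with both was not counted, so this is not shown to be particular to CHS. In wild type and cerk1, RHM1 had ratios of 0.703 (0.668 to 0.74) and 1.26 (1.18 to 1.34). FLS3 had 0.744 (0.592 to 0.933) and 1.39 (1.09 to 1.77). The median response difference was 0.57 for the 8 other flavonol genes, 7 positive and 1 negative. For the 23 root markers it was 0.92, with 21 positive and 2 negative. Their part in the CHS values was not tested.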

How the results depend on the processing

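In wild type, 3 of the 8 genes passed 2-fold downward with flg22 on CPM + 1. This count was 1 with CPM + 5 and 5 with library totals or at 1.5-fold. Among all genes, 1092 were lower on CPM + 1, 469 with CPM + 5 and 2024 with library totals. In cerk1 the number of the 8 that were lower was 1 at 1.5-fold in place of 0. Counts at 1.5-fold are given here without the share of all genes. Between the mock libraries the number lower in cerk1 was 0 with library totals in place of 1, and the number higher was 1 with CPM + 0.1 or at 1.5-fold in place of 0 (LDOX). For all genes, 735 were lower with library totals in place of 756, and 270 were higher with CPM + 0.1 in place of 57. The number with a response at least 2-fold higher in cerk1 was 2 with CPM + 0.1 or library totals and 4 at 1.5-fold, in place of 1. With CPM + 0.1 the number among all genes was 1389 in place of 762. The cause was not tested beyond the shift of all genes that library totals bring. No log2 ratio past 2-fold changed sign under these settings, DESeq2 size factors or other filters. In the lines, each of 14 alternative fits per comparison called 0 of the 10 genes, with adjusted p values of at least 0.307, and leaving out single libraries left the count at 0. The replicate block likewise called 0. The replicate numbers were not taken as pairing the libraries: replicate differences correlated across genes by 0 to 0.23 between lines, over 0.1 in 4 of 6 pairs of lines, and whether a number marks a shared batch was not tested. The block changed no call. The median of CERK1_3E against CERK1_WT was -0.26 to -0.13 when 1 library was left out. With 1 library per group the flg22 experiment has counting error only, and DFR and LDOX there rest on 20 to 45 counts per library.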

Other observations

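DFR, UF3GT and MYB75 were low in the flg22 experiment and higher in the untreated lines, while not all genes of the anthocyanin branch were. The tables were scaled separately and come from separate experiments, so these levels are set side by side without a test. Among genes with the same stated length in both tables, DFR stood at 1.00 to 1.56 CPM in the flg22 experiment and at 17.1 to 32.7 CPM in the lines. UF3GT stood at 0.352 to 0.654 and 3.57 to 5.90 CPM, and MYB75 at 0 to 0.252 and 2.11 to 6.86 CPM. MYB12, at 3.46 to 7.71 and 2.59 to 5.85 CPM, and CHI, at 10.2 to 22.8 and 30.9 to 42.9 CPM, were closer. Higher levels in the lines were not limited to the anthocyanin branch. Of flavonol genes of equal length, UGT78D2 stood at 15.35 to 24.65 and 56.6 to 72.3 CPM. RHM1 stood at 83.3 to 183 and 314 to 416 CPM, while OMT1 overlapped, at 152 to 256 and 224 to 283 CPM. CHS, of unequal length, stood at 93.4 to 224 and 514 to 640.5 CPM. Of 8824 genes with equal stated lengths and at least 1 CPM in the flg22 experiment, 87 (0.986%) had every line library at least 4-fold above every library of the flg22 experiment, DFR among them, and 67 (0.759%) the reverse. AT4G14090, also of the anthocyanin list and of equal length, stood at 1.95 to 2.92 and 10.7 to 14.98 CPM. GSTF12 and LDOX were likewise higher in the lines, at 5.65 to 11.7 against 0.756 to 1.76 CPM and 13.7 to 25.2 against 1.06 to 2.26 CPM, but their stated lengths differ between the tables. Of the other genes on that list, AT5MAT, of equal length, stood at 0.150 to 0.704 and 2.60 to 4.25 CPM, and BGLU10, of equal length, at 14.9 to 23.5 and 21.4 to 35.5 CPM, where the experiments overlap. AT1G03495 also overlapped, at 4.84 to 11.3 and 10.6 to 12.4 CPM, and AT2G23000 stood at 3.07 to 5.39 and 61.3 to 80.5 CPM, both of unequal length. The repressor MYBL2, of equal length, stood at 13.2 to 54.2 and 8.74 to 22.4 CPM. The genes named here outside the 10 were chosen after their values were seen.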
